A study of Rattus norvegicus with 12 samples.

Results

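The left and the right atrium were compared in rats whose hearts had been overloaded with volume for 28 days. The comparison used 6 of the 12 arrays of the series, the 3 titled left atria shunt and the 3 titled right atria shunt. The control probe sets of the array were set apart, which left 31042 probe sets, and 14217 genes were named by at least 1 of them. The animals were male Sprague-Dawley rats of 225 to 275 g that had received an aorto-caval shunt, a surgical opening between the aorta and the vena cava. The other 6 arrays came from sham-operated rats of the same strain, sex and weight, 3 of left and 3 of right atrium, and served as the background without overload. Each array held cRNA made from 10 µg of total RNA of a pool of 2 tissues, so each group was 3 pools, and the p-values below reflect the spread among pools and no more. The labels do not say whether a left and a right pool came from the same hearts, and their tissue entry names ventricles beside atria.

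A shunt between aorta and vena cava returns arterial blood directly to the veins, so that more blood reaches the heart at each beat and both atria are stretched. The atria share a contractile programme of their own, with atrial myosin light chains and the secretion of natriuretic peptides, but they differ in origin. Part of the right atrium forms from the sinus venosus, which also gives rise to the pacemaker, whereas the left atrium does not.

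Values are log2 RMA values, normalised log2 signals on which a difference of 1 is 2-fold. Differences are left minus right with the standard error (SE) of the limma fit, so a negative difference means a higher value in the right atrium, and the threshold was a Benjamini-Hochberg adjusted p of 0.05. After shunt, 11690 of 31042 probe sets passed (37.7% of those tested), 6280 higher in the left atrium (20.2%) and 5410 higher in the right (17.4%). An unadjusted p under 0.05 was reached by 14577 (47.0%). The 3 left arrays and the 3 right arrays did not overlap for 48.9% of the probe sets and 52.6% of the genes. Differences of at least 2-fold were fewer, with 748 probe sets (2.41%), of which 255 were higher in the left (0.821%) and 493 in the right (1.59%). With each gene represented by its brightest probe set, 5751 of 14217 genes passed (40.5%), 21.0% higher in the left and 19.4% higher in the right, and 262 of them (1.84%) differed at least 2-fold, 78 higher in the left (0.549%) and 184 in the right (1.29%).

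Chamber was the main axis of the data, and the control probe sets differed along it too. The first principal component held 60.5% of the variance of the 12 arrays and parted all left from all right arrays; among the 6 shunt arrays alone it held 66.9%. Of 45 probe sets for bacterial and phage spike-in transcripts, which carry no rat RNA, 27 were lower on all 3 left shunt arrays than on all 3 right shunt arrays, none was higher and 18 overlapped, with a median difference of -0.36 (range -1.35 to 0.13). In sham hearts 19 were lower and 3 higher, with a median of -0.15. The beta-actin controls measure how far the 3′ end of a transcript outweighs its 5′ end. That difference was 1.14, 1.23 and 1.39 on the left shunt arrays and 2.03, 1.96 and 1.91 on the right shunt arrays, so the groups did not overlap. For GAPDH it was 0.18, 0.18 and 0.28 on the left and 0.38, 0.36 and 0.35 on the right. For hexokinase 1.16, 1.38 and 1.73 on the left stood against 1.79, 1.70 and 1.79 on the right, which overlapped. In sham hearts the left minus right means were -0.35 for beta-actin, -0.14 for GAPDH and 0.04 for hexokinase. Gene length moved with the chamber difference as well: in the 2834 shortest genes (up to 7.13 kb) 26.4% were called higher in the left and 9.99% in the right, and in the 2832 longest (from 69.2 kb) 14.2% and 30.9%. Across 14161 genes the Spearman correlation of length with the difference was -0.21, over genes that share the same 6 arrays. The part of these control differences in the gene differences below was not tested. The labels give no labelling or scan batch, so handling of the left and right arrays and chamber cannot be told apart where they coincide.

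**Figure D1:**
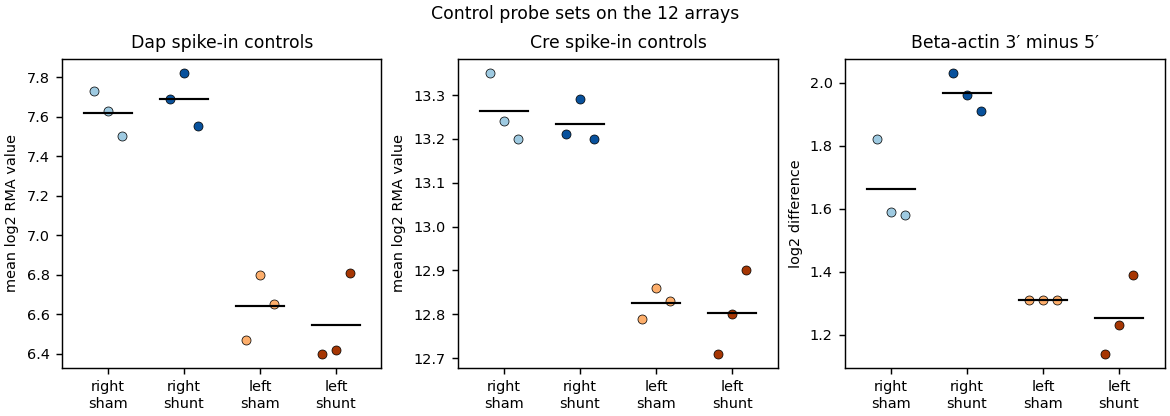
Spike-in and degradation controls on all 12 arrays, with 1 point per array and a bar at each group mean; the vertical axes are the mean log2 RMA value of the Dap and of the Cre spike-in probe sets and the log2 difference between the 3′ and the 5′ beta-actin probe sets. The 3 left shunt arrays lay below the 3 right shunt arrays in each panel, with mean differences of -1.15 for Dap, -0.43 for Cre and -0.72 for beta-actin.

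Among the 6 shunt arrays, left replicate 3 stood apart from the other 2 left arrays: it lay at -26.70 on the second component, against 14.95 and 13.62. On the right, replicate 1 carried lower values of ventricular genes than replicates 2 and 3, as given below. The atrial genes Nppa, Myl7, Myl4 and Sln were bright on every array, while ventricular markers were also bright on the right arrays (Myl2 at 11.45 to 12.83 after shunt), and whether right samples held ventricular tissue was not tested. Where the text names a gene with several probe sets called in opposite directions, it says so. Of 1409 genes with at least 2 called probe sets after shunt, 352 (25.0%) had calls in both directions.

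A probe set without a gene name separated the chambers most widely. Probe set 1377847_at had values of 13.65, 13.64 and 13.66 in the right atrium and 3.37, 3.36 and 3.38 in the left, a difference of -10.28 ± 0.06 (SE, n = 3 pools per group, adjusted p = 4.94e-18). Its sham values were 13.53 to 13.54 in the right and 3.40 to 3.52 in the left. It was thus near the top of the scale on all 6 right arrays and near the bottom on all 6 left arrays. Whether the limits of the scale compressed the difference was not tested. In the other direction, unnamed probe set 1368785_a_at had values of 8.59, 8.56 and 8.74 in the left and 4.55, 3.82 and 3.87 in the right (difference 4.55 ± 0.16, adjusted p = 1.24e-08).

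Among named genes, secreted and matrix proteins headed the genes higher in the left atrium. Adamts8, a secreted metalloprotease with thrombospondin motifs, measured 8.82, 8.70 and 9.0 in the left atrium and 6.50, 5.86 and 6.01 in the right, a 6.55-fold difference (2.71 ± 0.15, adjusted p = 6.62e-07). Pi16, a secreted peptidase inhibitor made by adventitial fibroblasts, measured 8.77, 8.73 and 7.77 in the left and 6.02, 5.70 and 5.70 in the right (2.62 ± 0.22, adjusted p = 5.99e-06), and its other probe set differed by 2.32. Ccl21, the chemokine by which lymphatic vessels attract lymphocytes and dendritic cells, measured 7.93, 7.37 and 8.37 against 5.30, 5.72 and 5.61 (2.35 ± 0.24, adjusted p = 2.49e-05). All left values of these genes lay above all right values, and left replicate 3 was the lowest left array for Pi16 and the highest for Ccl21 and Adamts8. Sfrp1, a secreted antagonist of Wnt ligands, measured 9.01, 9.05 and 9.11 in the left and 7.40, 7.33 and 7.23 in the right (1.74 ± 0.10, adjusted p = 8.51e-07), and its 2 other probe sets differed by 1.03 and 1.69.

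Other matrix and vessel genes followed. Hmcn2, a hemicentin of basement membranes, measured 7.94, 7.78 and 8.37 in the left and 5.45, 5.94 and 6.07 in the right (2.21 ± 0.20). Mfap4, a protein of elastic microfibrils, measured 11.38, 11.55 and 11.22 against 9.94, 9.78 and 9.72 (1.57 ± 0.10). Mmrn1, multimerin, a protein of platelets and lymphatic endothelium, measured 5.51, 5.66 and 6.28 against 3.97, 4.11 and 4.22 (1.71 ± 0.22). None of these ranges overlapped, as the same rule required. The water channel Aqp1 (1.35 ± 0.10, second probe set 1.97) and Jam2, an adhesion molecule of endothelial junctions (1.34 ± 0.07, with 3 of its 4 other probe sets also called higher in the left), were higher in the left too. Of the remaining genes among the 20 largest, Ucp2, an uncoupling protein of the inner mitochondrial membrane, differed by 1.38 ± 0.11, Prkaca, the catalytic subunit of protein kinase A, by 1.37 ± 0.13, Shmt2, a mitochondrial enzyme of the folate cycle, by 1.31 ± 0.11 and Gsr, glutathione reductase, by 1.31 ± 0.11. Prrc2a (2.0), Cnbd2 (2.12), the odorant-binding gene Obp3 (1.71), the IgM receptor Fcmr (1.48), Zc2hc1a (1.46), Ppp1r37 (1.37) and Epn1 (1.29), which acts in endocytosis, completed the list. The second probe set of Cnbd2 differed by 0.18 and did not pass.

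Among named genes, Myl2 had the largest excess in the right atrium. Myl2, the regulatory light chain of ventricular and slow muscle, measured 11.45, 12.83 and 12.82 in the right atrium and 5.82, 6.42 and 5.71 in the left, an 83.4-fold difference (-6.38 ± 0.30, adjusted p = 2.64e-07). Its second probe set differed by -0.02 and did not pass. Myl3, the ventricular essential light chain, measured 10.78, 12.05 and 11.92 in the right and 9.54, 9.98 and 9.16 in the left (-2.02 ± 0.31, adjusted p = 0.000411). Right replicate 1 was the lowest right array for both genes and lay above every left array, as the rule for choosing them required. Rpl3l, a ribosomal protein of striated muscle, showed the same spread: 6.66, 8.32 and 8.19 in the right and 4.86, 5.23 and 5.12 in the left (-2.65 ± 0.33, adjusted p = 9.1e-05). Irx4, a homeobox factor of the ventricles, measured 4.18, 5.86 and 5.94 against 3.23, 3.13 and 3.40 (-2.07 ± 0.34, adjusted p = 0.000549), and its other probe set differed by 0.14 and did not pass. With right replicate 1 as the only right shunt array, all 4 genes still passed, with differences of -5.46 for Myl2, -1.22 for Myl3, -1.59 for Rpl3l and -0.93 for Irx4.

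Genes outside the muscle programme were higher in the right atrium as well. Cxcl13, the chemokine that attracts B cells through the receptor Cxcr5, measured 7.54, 7.10 and 7.62 in the right and 4.74, 5.19 and 4.82 in the left (-2.51 ± 0.19, adjusted p = 3.03e-06). Ebf2, a transcription factor of adipocyte precursors, measured 5.45, 5.83 and 5.96 against 3.77, 3.62 and 3.09 (-2.25 ± 0.18), and the homeobox factor Meis2 measured 6.74, 7.37 and 7.15 against 5.25, 5.13 and 4.94 (-1.98 ± 0.15). Slc24a4, an exchanger of sodium for calcium and potassium, measured 8.62, 8.69 and 8.77 against 6.86, 6.88 and 6.83 (-1.84 ± 0.09, adjusted p = 4.27e-07), and both of its other probe sets were called the same way (-1.63 and -1.47). Left and right arrays were apart for all 4 genes, as the rule for choosing them required. The Slc24a4 values varied by no more than 0.15 within a chamber. Loxl2, an enzyme that crosslinks collagen and elastin, differed by -1.82 ± 0.26, although its second probe set differed by 0.11 and did not pass. Arxes1 (-2.35), Mga (-2.15), Zbtb41 (-2.52), Slco5a1 (-2.0), Rps6ka5 (-1.97), Tmed5 (-1.95), Zdhhc20 (-1.94), Pilra (-1.91), Tafa2 (-1.91), Cdhr1 (-1.87) and Zfp536 (-1.86) made up the rest of the 20 largest. The 3 other probe sets of Zfp536 differed by -0.16 to 0.02 and were not called. For Zbtb41, Tmed5, Pilra, Cdhr1 and Loxl2 the lowest left value was that of replicate 3.

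**Figure D2:**
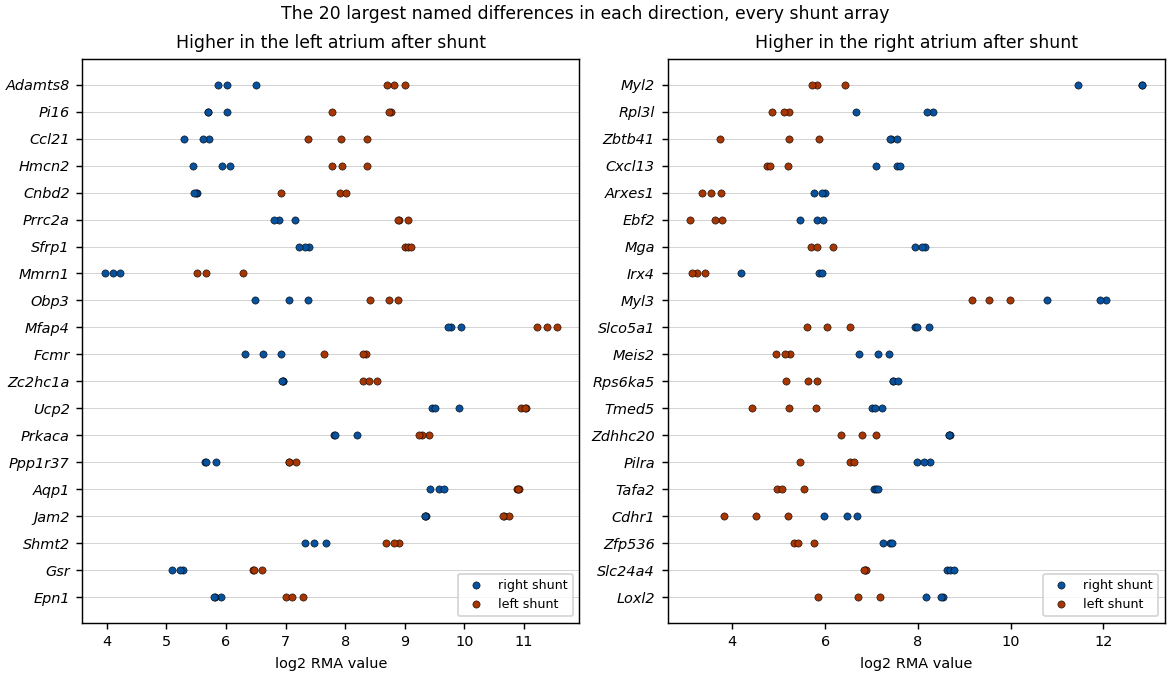
Values on the 6 shunt arrays for the 20 named genes with the largest difference in each direction, 1 row per gene and 1 point per array; the horizontal axis is the log2 RMA value. No left point overlaps a right point, as the rule for choosing these genes requires; right points of Myl2, Rpl3l, Irx4 and Myl3 are split, with replicate 1 lowest.

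The sequences before the start sites are shown for 5 of the genes above or below, because they led a direction, held a searched motif or passed the test for a chamber difference that differed with the shunt. They come from RefSeq, build GRCr8, run from 250 bases before to 50 bases after the annotated start, and read 5′ to 3′ on the strand of the gene. Capitals mark matches, on either strand, to TAATCC (bound by some homeodomain factors), AGGTGTGA (bound by T-box factors), TATAAA (the TATA box), GGCGCC (bound by Smad factors in BMP response elements) and TTCTTGGAA (bound by Stat factors); the last 3 were chosen after values were seen. Hamp lies at chr1:95300222-95300521 (minus strand), Pi16 at chr20:7377703-7378002 (plus), Cxcl13 at chr14:13917871-13918170 (minus), Slc24a4 at chr6:127044220-127044519 (plus) and Mga at chr3:127305125-127305424 (plus).
Hamp: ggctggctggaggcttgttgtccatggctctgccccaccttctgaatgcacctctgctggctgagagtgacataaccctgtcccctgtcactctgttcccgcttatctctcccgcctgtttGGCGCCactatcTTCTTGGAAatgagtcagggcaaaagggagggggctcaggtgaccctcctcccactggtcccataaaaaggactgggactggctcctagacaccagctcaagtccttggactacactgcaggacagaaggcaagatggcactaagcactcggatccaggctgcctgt
Pi16: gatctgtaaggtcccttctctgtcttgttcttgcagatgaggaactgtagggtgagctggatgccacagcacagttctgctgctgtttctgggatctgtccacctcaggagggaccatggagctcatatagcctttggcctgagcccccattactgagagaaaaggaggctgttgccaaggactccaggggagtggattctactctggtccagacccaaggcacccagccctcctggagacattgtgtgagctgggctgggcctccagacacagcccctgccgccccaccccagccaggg
Cxcl13: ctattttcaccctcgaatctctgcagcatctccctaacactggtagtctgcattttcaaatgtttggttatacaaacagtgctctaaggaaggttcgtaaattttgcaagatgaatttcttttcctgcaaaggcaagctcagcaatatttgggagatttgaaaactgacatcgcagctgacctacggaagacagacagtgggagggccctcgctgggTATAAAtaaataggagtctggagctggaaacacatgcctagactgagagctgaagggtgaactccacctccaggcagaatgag
Slc24a4: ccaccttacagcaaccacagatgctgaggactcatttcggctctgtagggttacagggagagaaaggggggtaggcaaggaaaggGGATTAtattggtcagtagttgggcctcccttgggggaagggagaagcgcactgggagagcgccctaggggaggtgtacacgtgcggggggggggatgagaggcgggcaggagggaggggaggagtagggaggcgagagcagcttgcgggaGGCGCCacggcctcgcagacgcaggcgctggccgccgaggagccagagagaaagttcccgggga
Mga: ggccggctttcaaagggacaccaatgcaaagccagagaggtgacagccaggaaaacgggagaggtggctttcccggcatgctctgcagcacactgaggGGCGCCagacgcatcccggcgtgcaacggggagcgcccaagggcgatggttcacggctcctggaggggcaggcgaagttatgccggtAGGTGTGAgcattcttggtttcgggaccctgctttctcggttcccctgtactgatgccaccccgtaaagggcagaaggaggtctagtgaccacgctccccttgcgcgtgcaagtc
In these windows Hamp held 1 GGCGCC and 1 TTCTTGGAA match, Cxcl13 held 1 TATAAA match, Slc24a4 held 1 TAATCC and 1 GGCGCC match, Mga held 1 AGGTGTGA and 1 GGCGCC match, and Pi16 held none of the 5. Over the 11700 measured genes with a promoter in the table, TAATCC was present in 5.54%, against 3.64% of the 55 genes at least 2-fold higher in the left and 5.84% of the 137 at least 2-fold higher in the right. AGGTGTGA was present in 0.932% of all, in 0 of 55 and in 1.46%. TATAAA was present in 8.45% of all, 9.09% and 8.03%. GGCGCC was present in 19.6% of all, 30.9% and 23.4%, and TTCTTGGAA in 0.274% of all, 0 of 55 and 2.19% (3 promoters). A match says only that the letters are there.

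Chamber identity was compared over lists of genes. All list counts below stand beside 21.0% of all genes higher in the left, 19.4% higher in the right and 40.5% called in all. Of 29 measured cardiac transcription factors, 9 were higher in the left and 8 in the right (58.6% called). Their median difference was 0.06 beside 0.04 over all genes. Of the factors higher in the left, Nkx2-5 measured 10.02, 10.03 and 9.97 in the left and 9.17, 9.06 and 9.02 in the right (0.92 ± 0.08, adjusted p = 7.22e-06), Hand2 differed by 0.63 ± 0.08 and Gata4 by 0.57 ± 0.11. Nr2f2, which sets atrial identity in embryonic muscle, differed by 0.31 ± 0.08 (adjusted p = 0.0076), and Tbx5, a T-box factor of the atria, by 0.20 ± 0.13 (adjusted p = 0.229). On the right side stood Irx4, Shox2 and the Notch targets of the Hey family. Hey2, which represses atrial genes in the ventricle, measured 6.95, 7.26 and 7.10 in the right and 5.71, 6.01 and 5.68 in the left (-1.31 ± 0.12), and Hey1 differed by -1.20 ± 0.11. Hopx, a homeodomain protein that does not bind DNA, differed by -0.96 ± 0.08.

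Of 18 measured genes of the sinus venosus and the pacemaker, 3 were higher in the right and 6 in the left. Shox2, which keeps the sinus venosus from turning into working muscle, measured 6.46, 6.53 and 6.29 in the right and 4.73, 5.09 and 5.28 in the left (-1.39 ± 0.14, adjusted p = 1.88e-05), and its 2 other probe sets were not called. Cacna1h, a T-type calcium channel, differed by -1.07 ± 0.11, but another probe set of it was higher in the left by 0.50 and also called. Gjc1, the connexin of nodal tissue, differed by -0.42 ± 0.12 (-0.26 without left replicate 2). Other genes of the node went the other way by small amounts: Hcn4, the main pacemaker channel, measured 5.51, 5.66 and 5.69 in the left and 5.44, 5.27 and 5.14 in the right (0.34 ± 0.09, adjusted p = 0.0138), Hcn2 differed by 0.44 ± 0.10, Isl1 by 0.33 ± 0.08 and Tbx3 by 0.34 ± 0.09. Hcn4 and Tbx3 did not pass without right replicate 3 (both 0.27, adjusted p = 0.0619 and 0.061), and 1 other probe set of Tbx3 was called higher in the right (-0.37). The difference of Tbx18, a factor of the sinus horns, was -0.16 ± 0.09 (adjusted p = 0.19; -0.28 and adjusted p = 0.0137 without left replicate 2). So within the list Shox2 was the only member at least 2-fold higher in the right whose probe sets were not called in both directions.

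None of the 7 measured atrial muscle markers passed, and their median difference was 0.05. Nppa, the atrial natriuretic peptide, lay between 14.42 and 14.43 on all 6 shunt arrays (0.01 ± 0.06, adjusted p = 0.937), near the ceiling of the array, which compresses differences. Myl7 (0.05 ± 0.07), Myl4 (0.11 ± 0.07), which are the atrial light chains, and sarcolipin (Sln, -0.07 ± 0.06) were bright in both atria and did not pass. Kcna5, the channel of the ultrarapid potassium current, differed by 0.27 ± 0.14 (adjusted p = 0.154), and Gja5, the atrial connexin, by 0.10 ± 0.13 (adjusted p = 0.545). Of 6 ventricular markers, 4 were higher in the right (Myl2, Myl3, Irx4 and Hey2). Myh7, the slow myosin heavy chain, measured 9.45, 10.46 and 10.01 in the right and 9.57, 9.56 and 8.99 in the left and did not pass (-0.60 ± 0.22, adjusted p = 0.0525; -0.86 and adjusted p = 0.00728 without right replicate 1). The remaining marker, Irx5, was higher in the left by 0.33 ± 0.10, and did not pass without any 1 of right replicates 1 or 2 or left replicates 2 or 3 (0.27 to 0.29). The mean level of the 6 ventricular markers was 7.86, 8.80 and 8.73 in the right and 6.41, 6.66 and 6.30 in the left. In bulk tissue, fewer cells of a type and less RNA per cell cannot be told apart.

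Sarcomere genes lay on both sides. Of 35 sarcomere and Z-disc genes, 10 were higher in the left, 5 in the right and 20 did not pass. In all 42.9% were called, near the 40.5% over all genes. Fhl2, a LIM protein of the Z-disc, measured 10.06, 10.92 and 10.94 in the right and 9.26, 9.50 and 9.31 in the left (-1.29 ± 0.19), and with right replicate 1 alone it differed by -0.70. Actn2, the alpha-actinin of the Z-disc, measured 13.12, 13.13 and 13.10 in the left and 12.62, 12.63 and 12.62 in the right (0.49 ± 0.06), a small difference with almost no spread. Xirp1, a repeat protein of the intercalated disc, was higher in the left by 0.61 ± 0.10, Mybphl, an atrial myosin-binding protein, by 0.46 ± 0.09 and Mybpc3 by 0.39 ± 0.07. Myh6, the fast atrial heavy chain, differed by -0.06 ± 0.06 (adjusted p = 0.428) with its brightest probe set, whereas its second probe set was called higher in the left (0.82).

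Of 9 genes of the natriuretic peptides and their processing, 3 were higher in the left and none in the right, and the peptides themselves did not pass. In all 33.3% were called, below the 40.5% over all genes. Nppb, the B-type natriuretic peptide, measured 13.33, 13.37 and 13.30 in the left and 13.30, 13.34 and 13.26 in the right (0.04 ± 0.08, adjusted p = 0.737). These values also lay high on the scale, where differences can be compressed. Npr3, the clearance receptor that removes natriuretic peptides, was higher in the left by 0.53 ± 0.11 (adjusted p = 0.00198), Npr1, the receptor of both peptides, by 0.31 ± 0.10 (adjusted p = 0.0286), and Furin, a protease of propeptides, by 0.31 ± 0.08. Npr1 did not pass without right replicates 2 (0.23) or 3 (0.28) or left replicates 1 (0.31) or 2 (0.28), nor Furin without left replicate 2 (0.25). Of 14 genes of the stress and fetal programme, 6 were higher in the left, among them Rcan1, a target of calcineurin (0.47 ± 0.11), and 1 in the right. Acta1, skeletal actin, differed by -0.34 ± 0.14 (adjusted p = 0.075; -0.45 and adjusted p = 0.0315 without left replicate 3), and it passed without right sham replicate 2.

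Of 69 measured genes of the extracellular matrix, 25 were higher in the left, 12 in the right and 32 did not pass, with a median of 0.14. In all 53.6% were called, against 40.5% over all genes. Members higher in the left included collagen chains and some small proteoglycans. Col1a1, the main fibrillar collagen chain, measured 11.86, 11.79 and 11.47 in the left and 11.16, 10.87 and 10.85 in the right (0.74 ± 0.11, adjusted p = 0.000314), and its partner Col1a2 differed by 0.65 ± 0.13. Col6a2, of the microfibrillar collagen around cells, measured 9.90, 9.82 and 9.69 against 8.94, 8.73 and 8.74 (1.0 ± 0.09), and Col4a2, of the basement membrane, differed by 0.73 ± 0.10. Prelp, a leucine-rich proteoglycan that anchors basement membranes, measured 9.18, 9.42 and 8.77 against 8.05, 8.04 and 8.05 (1.08 ± 0.14), Fmod, fibromodulin, differed by 1.07 ± 0.24 and Bgn, biglycan, by 0.69 ± 0.16. Left and right arrays did not overlap for any of these genes, a separation that 52.6% of all genes showed. The difference of Col3a1 was 0.22 ± 0.08 (adjusted p = 0.0579), it passed without right replicate 1 (0.27) or left replicate 3 (0.30), and that of Ccn2, connective tissue growth factor, 0.09 ± 0.13 (adjusted p = 0.614).

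The matrix genes higher in the right atrium included the enzymes that crosslink fibres and several matricellular genes. Lox, lysyl oxidase, measured 8.71, 8.15 and 8.08 in the right and 7.13, 6.89 and 6.79 in the left (-1.38 ± 0.14, adjusted p = 2.79e-05), and its second probe set was called the same way (-0.87). Postn, periostin, which is made by activated fibroblasts, measured 8.54, 8.42 and 8.28 in the right and 7.39, 6.52 and 6.70 in the left (-1.54 ± 0.21, adjusted p = 0.000158). Aspn, asporin, differed by -0.99 ± 0.14 and Ccn5, a matricellular inhibitor of growth, by -0.98 ± 0.12. Left replicate 1 was the highest left array for Postn, Aspn and Ccn5 and stayed below all right arrays. Thbs4, a thrombospondin of tendon and stretched muscle, had the widest spread: 9.54, 7.85 and 7.21 in the left and 7.39, 6.69 and 6.66 in the right (1.29 ± 0.43, adjusted p = 0.0324). The lowest left array lay below the highest right array, and the gene did not pass without left replicate 1 (0.62), right replicate 2 (1.18) or right replicate 3 (1.16). Without left replicate 3, 31 matrix genes were higher in the left and 9 in the right. With right replicate 1 alone in its group the median of the matrix list was 0.04, against 0.14 in the main fit. Fibroblast markers did not follow a single direction: Pi16 was higher in the left, Dcn, decorin (-0.33 ± 0.09), and Pdgfra (-0.28 ± 0.08) in the right, and 3 of 6 did not pass. Dcn did not pass without right replicates 2 or 3 (both -0.29) or left replicate 3 (-0.26), nor Pdgfra without right replicate 2 (-0.23).

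Of 39 measured genes of TGF-beta and BMP signalling, 16 were higher in the right, 5 in the left and 18 did not pass, and the median was -0.15. In all 53.8% were called, against 40.5% over all genes (19.4% higher in the right and 21.0% in the left). With the mean of all probe sets of each gene, 13 were higher in the right and 8 in the left, and the median was -0.06. The genes higher in the right included receptors, Smads and BMP targets. Bmpr2, the type 2 BMP receptor, measured 9.19, 9.22 and 8.97 in the right and 8.37, 7.58 and 6.96 in the left (-1.49 ± 0.25), while its other probe set differed by 0.32 and was not called. Bmpr1a differed by -0.92 ± 0.17. Smad9, a Smad activated by BMP receptors, measured 8.47, 8.50 and 8.42 against 7.21, 7.39 and 6.66 (-1.38 ± 0.14), and Smad6, the inhibitory Smad that BMP signals induce, differed by -0.87 ± 0.10 with its brightest probe set, whereas its 3 other probe sets differed by 0.07 to 0.32 without a call and the mean of the 4 was -0.08 (adjusted p = 0.402). The BMP target genes Id1 (-0.64 ± 0.11), Id2 (-1.15 ± 0.28) and Id3 (-0.45 ± 0.13) were all higher in the right, and Id2 differed by -0.70 without left replicate 3. Inhba, a subunit of activin, differed by -0.90 ± 0.21 (-0.60 without left replicate 3). The ligands Bmp4 (0.73 ± 0.18) and Tgfb1 (0.52 ± 0.13) were higher in the left. With right replicate 1 alone in its group, the median of the list was -0.12.

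In the Wnt pathway, 5 of 26 measured genes were higher in the left and 6 in the right (42.3% called, near the 40.5% over all genes). Secreted antagonists stood on both sides: Sfrp1 was higher in the left, whereas Sfrp2 (-0.91 ± 0.19) and Wif1 (-1.0 ± 0.16) were higher in the right. Lrp6, a co-receptor of Wnt ligands, measured 7.86, 7.88 and 7.77 in the right and 6.75, 6.28 and 5.71 in the left (-1.59 ± 0.19), and the lowest left value was that of replicate 3. Tcf7, a factor through which the pathway acts on genes, differed by -0.72 ± 0.20, by -0.42 without left replicate 3, and did not pass without right replicate 2 (-0.63).

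In the insulin-like growth factor axis, 8 of 15 measured genes were higher in the right and 5 in the left. In all 86.7% were called, against 40.5% over all genes. Igf1 measured 9.96, 10.14 and 10.15 in the right and 9.43, 9.64 and 9.37 in the left (-0.61 ± 0.09), with both other probe sets called the same way (-0.92 and -0.63), and the receptor Igf1r differed by -0.82 ± 0.08. Igfbp3, the main carrier of these factors in blood, measured 7.87, 8.09 and 7.77 against 6.98, 6.97 and 6.99 (-0.93 ± 0.10). H19, the imprinted RNA next to Igf2, measured 8.59, 8.80 and 8.65 against 7.32, 8.16 and 7.81 (-0.91 ± 0.16). All right values were above all left values for these 4 genes. The arrays of the chambers were apart in 1 direction or the other for 52.6% of all genes. Igf2 differed by -0.92 ± 0.11 with its brightest probe set, but 2 of its 3 other probe sets were called higher in the left, and the mean of the 4 was -0.08. Leaving out any single shunt array gave 6 or 8 genes higher in the right and 5 in the left. With the mean of all probe sets of each gene, 6 were higher in the right and 5 in the left. The median of the list was then -0.08, against -0.27 with the brightest probe sets.

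**Figure D3:**
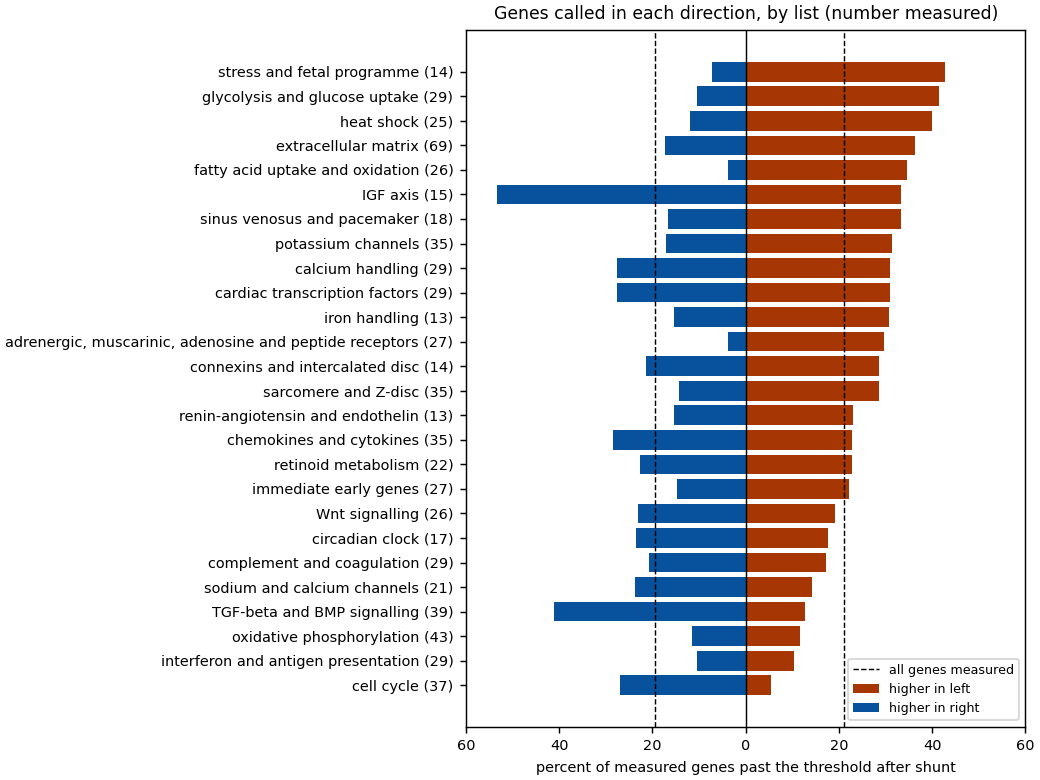
Share of the measured genes of each list of at least 10 genes that passed after shunt, higher in the left to the right of 0 and higher in the right to the left of 0, in percent; the number measured is in brackets. Dashed lines mark the shares over all 14217 genes, 21.0% and 19.4%. Each gene is represented by its brightest probe set. The bars for the IGF axis and for TGF-beta and BMP signalling reach well past the line on the right atrial side. With the mean of all probe sets of each gene, 6 of 15 and 13 of 39 genes of these lists were higher in the right.

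Ion channel genes lay on both sides. Of 35 potassium channel genes, 11 were higher in the left and 6 in the right (48.6% called, against 40.5% over all genes). The genes of the fast transient outward current were on the right side. Kcnip2, the accessory subunit of that current, measured 10.64, 10.77 and 10.57 in the right and 9.16, 9.70 and 9.01 in the left (-1.37 ± 0.22, adjusted p = 0.000509), Kcnd3 differed by -0.73 ± 0.09 and Kcnd2 by -0.69 ± 0.11. Kcna2, a delayed rectifier subunit, measured 9.30, 8.85 and 9.20 against 8.06, 7.57 and 7.95 (-1.26 ± 0.14). The brightest probe sets of Kcnip2, Kcna2, Kcnd2 and Kcnd3 separated the chambers completely, as did those of 52.6% of all genes. The 2 other probe sets of Kcnip2 and the second of Kcna2 were not called. On the left side, Kcnh2, the channel of the rapid delayed rectifier, measured 7.28, 7.39 and 7.34 against 6.78, 6.47 and 6.60 (0.72 ± 0.13), and Kcnj2, the inward rectifier, differed by 0.40 ± 0.09. The atrial acetylcholine-gated channel genes did not pass with their brightest probe sets: Kcnj3 differed by -0.30 ± 0.12 (adjusted p = 0.0633; -0.45 and adjusted p = 0.00423 without left replicate 1) and Kcnj5 by 0.01 ± 0.12 (adjusted p = 0.962). Another probe set of Kcnj3 was called higher in the left (0.43). Over 22 alternative settings the difference of Kcnj5 ranged from -0.13 to 0.43, and it passed in 1 of them.

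Of 21 sodium and calcium channel genes, 5 were higher in the right and 3 in the left (38.1% called, near the 40.5% over all genes). Scn4b, a beta subunit of the cardiac sodium channel, measured 7.14, 7.90 and 7.84 in the right and 5.93, 5.95 and 6.65 in the left (-1.45 ± 0.20), with right replicate 1 again the lowest right array and a difference of -0.96 when it was the only one. Scn7a, the sodium-sensing channel, measured 10.44, 10.63 and 10.55 against 9.46, 9.61 and 9.58 (-0.99 ± 0.09). The calcium channel subunits Cacna2d3 (-0.71 ± 0.09) and Cacna2d1 (-0.66 ± 0.08) were higher in the right, and Scn1a (0.68 ± 0.12) in the left. Calcium handling genes were split, 9 higher in the left and 8 in the right of 29 (58.6% called). Atp2a2, the calcium pump of the sarcoplasmic reticulum, lay between 13.82 and 13.86 on all 6 arrays (-0.01 ± 0.06, adjusted p = 0.93). This is near the top of the scale, where differences can be compressed. Ryr2, the calcium release channel, differed by -0.04 ± 0.07 (adjusted p = 0.674), while its second probe set was called higher in the right (-1.24). S100a1, which sensitises the release channel (0.58 ± 0.13), and Camk2b, a calcium-dependent kinase (0.88 ± 0.16), were higher in the left, and Casq1, the skeletal calsequestrin (-0.64 ± 0.10), in the right.

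Of 14 connexin and intercalated disc genes, 4 were higher in the left and 3 in the right. Gja1, the main connexin of working muscle, measured 12.28, 12.27 and 12.39 in the left and 12.32, 12.39 and 12.42 in the right and did not pass (-0.06 ± 0.07, adjusted p = 0.538), but another, dimmer probe set of it was called higher in the left by 2.07. The desmosome genes Dsc2 (0.86 ± 0.11) and Jup (0.76 ± 0.09) and the connexins Gja4 of arterial endothelium (0.60 ± 0.11) and Gja3 (0.56 ± 0.12) were higher in the left. Of 27 receptors for catecholamines, acetylcholine, adenosine, serotonin and peptides, 8 were higher in the left and 1 in the right (33.3% called). Htr2a, a serotonin receptor, measured 6.06, 6.14 and 5.79 in the left and 4.81, 5.07 and 4.82 in the right (1.09 ± 0.11, adjusted p = 1.89e-05), and its 3 other probe sets were called the same way (0.46 to 0.85). Adrb1, the beta1 receptor, measured 6.59, 6.66 and 6.17 against 5.61, 5.62 and 5.66 (0.84 ± 0.12), and Chrm2, the muscarinic receptor of the atria, differed by 0.42 ± 0.11. No left array overlapped a right array for Htr2a, Adrb1 or Chrm2, which was also so for 52.6% of all genes. In the renin-angiotensin and endothelin list, Ece1, which activates endothelin, was higher in the left (0.65 ± 0.11). The mineralocorticoid receptor Nr3c2 (-0.47 ± 0.09) and the glucocorticoid-forming enzyme Hsd11b1 (-0.72 ± 0.08) were higher in the right.

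Counts for genes of glucose and fatty acid use stand beside 21.0% higher in the left, 19.4% higher in the right and 40.5% called in all over every gene. Of 29 genes of glycolysis and glucose uptake, 12 were higher in the left and 3 in the right (51.7% called). Hexokinase 1 (Hk1) measured 9.87, 10.04 and 9.91 in the left and 9.11, 9.10 and 9.02 in the right (0.86 ± 0.07, adjusted p = 8.2e-06). Hk2 differed by 0.96 ± 0.18, Pygb, a glycogen phosphorylase, by 0.71 ± 0.10, Pdk2, which switches off pyruvate dehydrogenase, by 0.66 ± 0.09 and the insulin-dependent transporter Slc2a4 by 0.44 ± 0.08. The basal glucose transporter Slc2a1 went the other way, with 6.97, 7.20 and 6.96 in the right and 6.17, 5.95 and 6.20 in the left (-0.94 ± 0.09). Of 26 fatty acid genes, from uptake to oxidation, 9 were higher in the left and 1 in the right (38.5% called, near the share over all genes). Acads, the short-chain acyl-CoA dehydrogenase, measured 9.22, 9.36 and 9.37 in the left and 8.07, 8.19 and 8.19 in the right (1.17 ± 0.08, adjusted p = 2.17e-06), Ppara, a nuclear receptor that drives these genes, differed by 0.65 ± 0.11 and Cpt1b, the muscle carnitine transferase, by 0.37 ± 0.09. The chambers were apart for Hk1, Slc2a1 and Acads, as for 52.6% of all genes. Of 43 genes of oxidative phosphorylation 5 were higher in each chamber and 33 did not pass, and Cox5a (0.91 ± 0.14) was the only one past 0.5. Leaving out any single shunt array gave 12 glycolysis and 9 fatty acid genes higher in the left, and 3 to 5 genes of oxidative phosphorylation higher in the left and 2 to 4 in the right. With right replicate 1 alone in its group, the median difference was 0.17 for the glycolysis list and 0.19 for the fatty acid list. In the main fit these medians were 0.15 and 0.11.

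Immune genes were on both sides. Of 35 chemokines and cytokines, 10 were higher in the right and 8 in the left (51.4% called, against 40.5% over all genes). Besides Cxcl13, Ccl6 measured 9.28, 9.31 and 9.30 in the right and 8.13, 8.49 and 7.96 in the left (-1.10 ± 0.12), Ccl5, which attracts T cells, differed by -0.72 ± 0.13 and Il1b, an inflammatory cytokine, by -0.67 ± 0.08. Besides Ccl21, the eosinophil chemokine Ccl24 (0.69 ± 0.11) and the macrophage growth factor Csf1 (0.62 ± 0.08) were higher in the left. Cxcl12 differed by -0.68 ± 0.10 with its brightest probe set, and another of its probe sets was called higher in the left (0.61). Of 29 interferon and antigen presentation genes, 3 were higher in each chamber (20.7% called, below the 40.5% over all genes). Cxcl11, an interferon-induced chemokine, measured 5.86, 5.75 and 5.79 in the right and 4.55, 4.10 and 3.70 in the left (-1.69 ± 0.18), and Tap2, the peptide transporter of antigen presentation, measured 6.48, 6.65 and 6.31 in the left and 5.34, 5.57 and 5.36 in the right (1.05 ± 0.11). Of 29 complement and coagulation genes, 6 were higher in the right, led by F13a1, the clotting factor XIII chain that resident macrophages make (-1.17 ± 0.17), and 5 in the left, among them C3 (0.79 ± 0.11). In all 37.9% of this list were called, near the share over all genes.

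Markers of macrophages were compared in the same way. Of 8 markers, 4 were higher in the right and none in the left: Cd163, the scavenger receptor of haemoglobin, measured 6.68, 6.65 and 6.69 in the right and 5.55, 5.64 and 5.26 in the left (-1.19 ± 0.12, adjusted p = 2.81e-05), Aif1 differed by -0.66 ± 0.15, C1qa by -0.61 ± 0.12 and Mrc1 by -0.52 ± 0.14 (-0.34 without left replicate 3). The other 4, Cd68, Csf1r, C1qb and Lyz2, differed by -0.33 to 0.10 and did not pass. The mean level of the list ranged from 7.89 to 7.98 in the right and from 7.10 to 7.69 in the left. Its part in the differences of the chemokine and coagulation genes was not tested.

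Of 37 cell cycle genes, 10 were higher in the right, 2 in the left and 25 did not pass, with a median of -0.16. In all 32.4% were called, below the 40.5% over all genes (19.4% higher in the right and 21.0% in the left). Mki67, a marker of cycling cells, measured 6.51, 5.47 and 5.71 in the right and 5.38, 4.49 and 4.63 in the left (-1.06 ± 0.26), Bub1, a spindle checkpoint kinase, measured 4.69, 4.22 and 4.17 against 3.66, 3.25 and 3.33 (-0.94 ± 0.18), and Cdk1, the mitotic kinase, measured 6.68, 5.71 and 5.78 against 5.82, 4.77 and 4.70 (-0.96 ± 0.31, adjusted p = 0.0265). Replicate 1 was the highest array of both chambers for these 3 genes, and for Cdk1 it made the chambers overlap. At each replicate number the left value lay below the right value for all 3 genes. The labels do not say whether the numbers pair the samples, and the main fit did not pair them. Cdk1 did not pass without right replicate 1 (-0.65) or left replicates 2 (-0.80) or 3 (-0.77). The cyclins of early growth phase, Ccnd1 (-1.38 ± 0.31) and Ccnd2 (-1.18 ± 0.30), differed by -0.87 and -0.69 without left replicate 3. Without right replicate 1, 6 genes were higher in the right and 5 in the left, and without left replicate 1 the counts were 15 and 2.

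Smaller programmes were split. Of the heat shock genes 52.0% were called, of the immediate early genes 37.0%, of the clock genes 41.2% and of the retinoid genes 45.5%. Over all genes the share was 40.5%. Of 25 heat shock genes, 10 were higher in the left and 3 in the right; the small heat shock protein Hspb7 measured 12.61, 12.50 and 12.29 in the left and 11.84, 11.64 and 11.73 in the right (0.73 ± 0.10), and Hspb1 differed by 0.63 ± 0.13. Of 27 immediate early genes, 6 were higher in the left, among them Zfp36 (0.69 ± 0.09) and Ier2 (0.69 ± 0.12), and 4 in the right. The right-sided group was led by Nr4a3, an orphan nuclear receptor induced by stretch and catecholamines, with 6.65, 6.55 and 6.64 in the right and 5.27, 5.05 and 4.42 in the left (-1.70 ± 0.32), although its 2 other probe sets were not called. Without right replicate 1, right replicate 2, left replicate 2 or left replicate 3, 1 gene of this list was higher in the right. Of 17 clock genes, the output factors Dbp (0.67 ± 0.15) and Tef (0.82 ± 0.10) were higher in the left and Rora (-0.87 ± 0.15), Clock (-0.59 ± 0.08) and Cry1 (-0.49 ± 0.10) in the right; Tef and Clock each had another probe set called the opposite way. Of 22 retinoid genes, 5 were higher in each chamber, with Rarres1 (-1.29 ± 0.11), the retinol carrier Ttr (-0.96 ± 0.11) and Aldh1a1 (-0.74 ± 0.17) on the right and the receptor Rxra (0.66 ± 0.13) on the left.

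Of 13 iron genes, 4 were higher in the left and 2 in the right (46.2% called, against 40.5% over all genes). Hamp, hepcidin, the hormone that blocks iron export from cells, measured 12.61, 12.64 and 12.42 in the right and 11.77, 11.87 and 11.49 in the left, a 1.80-fold difference (-0.85 ± 0.12, adjusted p = 0.000223). Cp, ceruloplasmin, which oxidises iron as it leaves the cell, measured 8.92, 8.88 and 8.87 against 8.05, 8.23 and 7.94 (-0.82 ± 0.08). Right arrays were above left arrays for both, while the chambers were apart in either direction for 52.6% of all genes. Upstream of hepcidin, the co-receptor Hjv (0.32 ± 0.09) and Hfe (0.54 ± 0.11) were higher in the left, as was the ferrireductase Steap3 (0.57 ± 0.09). Hjv did not pass without right replicate 2 (0.27).

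Markers of other cells followed single arrays in part. Of 7 neuronal markers, 4 were higher in the left and none in the right, and their mean level was 4.38, 4.55 and 4.99 in the left and 4.17 to 4.33 in the right. Nefl, a neurofilament, measured 3.17, 3.24 and 4.35 in the left and 2.96, 2.89 and 2.91 in the right (0.67 ± 0.23; 0.29 without left replicate 3), and it did not pass without right replicate 1, 2 or 3 (0.69, 0.65 and 0.66). Of 6 adipocyte markers, 2 were higher in the left, and Plin1, which coats fat droplets, measured 4.34, 4.89 and 5.89 against 4.12, 4.27 and 4.15 (0.86 ± 0.28, adjusted p = 0.0288; 0.43 and adjusted p = 0.0552 without left replicate 3). Plin1 did not pass without right replicate 1, 2 or 3 either (0.83, 0.90 and 0.84). Their mean level was 4.61, 5.30 and 6.13 in the left and 4.80 to 4.85 in the right, so left replicate 3 was the highest and left replicate 1 the lowest of the 6 arrays. Both measured erythrocyte markers were higher in the left, and the mean level was 11.01, 10.83 and 9.95 in the left and 9.77 to 9.96 in the right. Alas2, the haem enzyme of red cells, measured 8.79, 8.53 and 7.36 in the left and 7.34, 7.11 and 7.21 in the right (1.01 ± 0.26). Left replicates 1 and 2 held high erythrocyte values and replicate 3 high neuronal and adipocyte values. Of 5 mesothelial markers, Msln (1.23 ± 0.17) and Krt19 (1.17 ± 0.15) were higher in the left and Wt1 (-0.53 ± 0.13) in the right. Of 5 smooth muscle markers, Tagln (0.90 ± 0.09), Myh11 (0.35 ± 0.08) and Acta2 (0.34 ± 0.12) were higher in the left; Acta2 did not pass without right replicates 1 (0.34) or 3 (0.28) or left replicate 2 (0.22). Of 6 endothelial markers, Kdr, a receptor of vascular growth factor, was higher in the right (-0.82 ± 0.09), as was Tek (-0.24 ± 0.08), and Tie1 was higher in the left (0.39 ± 0.07). Tek did not pass without right replicates 1 (-0.21) or 3 (-0.20) or left replicates 1 (-0.22) or 3 (-0.23), nor without right sham replicate 2 or left sham replicate 3. Of 4 lung epithelial markers, Sftpb was called (0.40 ± 0.11). The part of these cell types in the other differences was not tested.

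Some list counts moved by more than 1.5 times when 1 shunt array was left out. Over all probe sets the count fell as well. It went from 11690 to between 8913 (without right replicate 2) and 11245 (without left replicate 3). Without right replicate 2, 5 receptor genes were higher in the left in place of 8, 5 transcription factors in the right in place of 8, 2 complement and coagulation genes in the left in place of 5, 2 iron genes in the left in place of 4, 1 heat shock gene in the right in place of 3, and no fibroblast marker in the right in place of 2. Without right replicate 2 or 3, 1 neuronal marker was higher in the left in place of 4. Without right replicate 1, 2 or 3 no adipocyte marker was higher in the left, and without left replicate 1 there were 5. Sodium and calcium channel genes higher in the left fell to 1 without right or left replicate 2, genes of natriuretic peptides to 1 without left replicate 2, and genes of the renin-angiotensin and endothelin list to 1 without right replicate 2 or 3 or left replicate 2. Without left replicate 3, 8 TGF-beta and BMP genes were higher in the left in place of 5, and 5 glycolysis genes in the right in place of 3. The lists of at most 8 genes otherwise gained or lost 1 member.

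The sham arrays are not among the arrays compared above, and their values show which chamber differences were there without overload. Both sets of arrays entered the same limma fit, so sham and shunt calls share the estimate of the spread of each probe set. The overlap of the calls is therefore not an independent check. In sham hearts 11214 probe sets passed (36.1%), and 7505 were called in both, 64.2% of the shunt calls and 66.9% of the sham calls. The direction was the same for 7464 of them and opposite for 41. Of the 748 probe sets at least 2-fold apart after shunt, 533 were at least 2-fold apart in the same direction in sham (71.3%), out of 1027 such probe sets in sham (3.31% of all; 51.9% shared), and none was 2-fold apart in the opposite direction. All 20 genes with the largest excess in the left atrium after shunt passed in sham in the same direction, among them Adamts8 (3.47), Pi16 (3.0), Ccl21 (2.91) and Sfrp1 (1.90). Of the 20 with the largest excess in the right, 19 did, among them Myl2 (-5.69), Cxcl13 (-3.69) and Meis2 (-1.85). Rpl3l was the exception, with -0.65 in sham (adjusted p = 0.144). Over genes, 37.6% passed in sham, 22.2% higher in the left and 15.4% in the right. Immediate early genes showed 6 higher in the left and 4 in the right after shunt, against 14 and 0 in sham, cell cycle genes 2 and 10 against 6 and 4, and fatty acid genes 9 and 1 against 16 and 0. No gene of these 3 lists passed the test of a changed chamber difference.

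**Figure D4:**
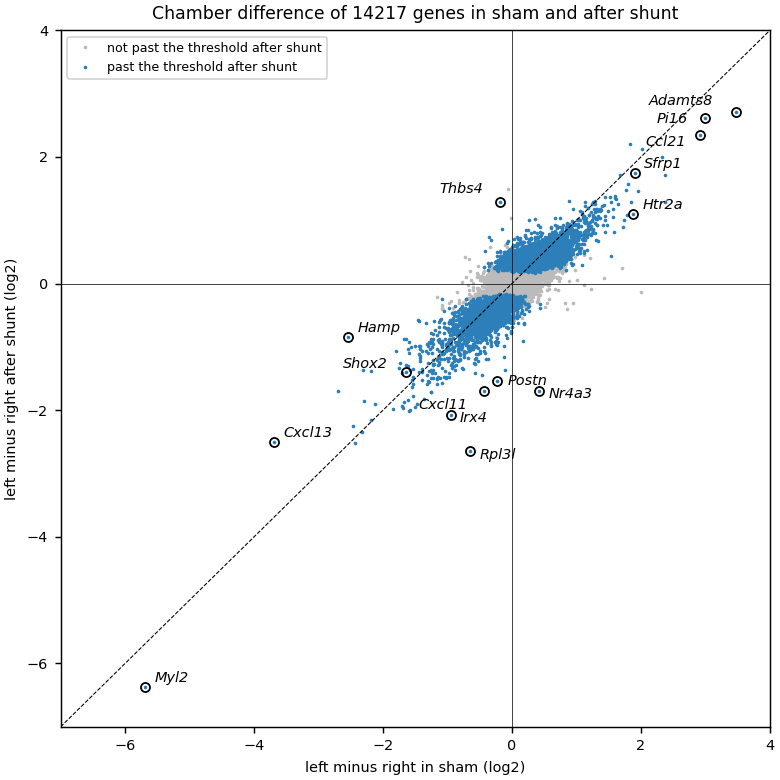
Chamber difference (left minus right, log2) of each of 14217 genes in sham hearts (horizontal axis) and after shunt (vertical axis), with genes past the threshold after shunt in blue, the others in grey and a dashed line of equal differences. Most large differences lie near the line; Rpl3l, Postn, Nr4a3, Cxcl11 and Thbs4 differed after shunt and were not called in sham, and Hamp differed less after shunt (-0.85) than in sham (-2.54).

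The test of the difference between the chamber differences, the interaction of chamber and operation, passed for 8 of 31042 probe sets (0.0258%), while 4467 had an unadjusted p under 0.05 (14.4%). With 1 probe set per gene, 4 of 14217 genes were among them (0.0281%): Hamp, Cxcr5, Ccr6 and Acyp2. Hamp had the largest change: its left values were 10.09, 9.64 and 9.79 in sham and 11.77, 11.87 and 11.49 after shunt, and its right values 12.40, 12.35 and 12.39 in sham and 12.61, 12.64 and 12.42 after shunt. The right excess was thus -2.54 in sham and -0.85 after shunt, an interaction of 1.69 ± 0.17 (adjusted p = 0.00753). It did not pass without right sham replicate 1 (1.68, adjusted p = 0.0526). Cxcr5, the receptor of Cxcl13, reversed: right arrays were higher in sham (6.93, 7.04 and 6.96 against 6.58, 6.62 and 6.48 in the left) and left arrays after shunt (6.96, 6.73 and 6.79 against 6.26, 6.35 and 6.33 in the right), with an interaction of 0.93 ± 0.11 (adjusted p = 0.0235). These are the values of its brightest probe set. With the mean of all probe sets of Cxcr5 the interaction was 0.51 and did not pass (limma adjusted p = 0.0548). With the brightest probe set the call was lost without right shunt replicate 2 (0.95), right sham replicates 1 (0.95) or 2 (0.90) or left sham replicates 2 (0.96) or 3 (0.89). For Cxcl13 itself the difference was -3.69 in sham and -2.51 after shunt, and the interaction did not pass (1.19 ± 0.27, adjusted p = 0.141).

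Ccr6, a chemokine receptor of lymphocytes and dendritic cells, measured 4.24, 4.20 and 4.33 in the left and 3.57, 3.63 and 3.66 in the right after shunt, and the sham arrays overlapped (3.98, 4.02 and 3.88 against 3.97, 4.04 and 4.12; interaction 0.72 ± 0.10, adjusted p = 0.0441). Acyp2, an acylphosphatase of muscle, differed by -1.08 in sham and -0.25 after shunt (not called without right shunt replicate 2 or 3 or left shunt replicate 1 or 3, at -0.28, -0.18, -0.20 and -0.25). Its interaction was 0.83 ± 0.12 (adjusted p = 0.0441). The calls of Ccr6 and Acyp2 passed in 4 of 20 and 8 of 21 alternative settings. Probe sets that did not represent their gene made up part of the rest: those of Zfp292 (0.84 ± 0.11) and of Larp4b (1.03 ± 0.14) passed with adjusted p of 0.0299 and 0.0388. The unnamed probe sets 1373882_at (-1.15 ± 0.15) and 1378249_x_at (0.68 ± 0.10) completed the 8. The count rested on single arrays: 21 probe sets passed without left shunt replicate 3, 4 without left sham replicate 1, 3 without left shunt replicate 2, 2 without right sham replicate 2, 1 each without right shunt replicate 2, left sham replicate 2 or left sham replicate 3, and none without right sham replicate 1.

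Another 20 genes were at least 2-fold apart after shunt and not called in sham, 16 of them higher in the right and 4 in the left, and none of these passed the interaction (adjusted p 0.133 to 0.959), so they are not shown to differ between the operations. Postn measured 7.28, 6.80 and 6.72 in the right and 6.94, 6.45 and 6.73 in the left in sham, and its interaction was -1.31 ± 0.29 (adjusted p = 0.141). Nr4a3 measured 7.07, 6.82 and 6.97 in the right and 8.35, 6.98 and 6.80 in the left in sham (interaction -2.12 ± 0.45, adjusted p = 0.141). Rpl3l measured 6.59, 6.15 and 5.92 against 5.49, 5.60 and 5.60 in sham (interaction -2.0 ± 0.47, adjusted p = 0.144). Thbs4 measured 5.69, 5.65 and 5.36 against 5.71, 5.30 and 5.17 in sham (interaction 1.47 ± 0.61, adjusted p = 0.305). Sham arrays of the chambers overlapped for Postn, Nr4a3 and Thbs4 and were apart for Rpl3l.

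**Figure D5:**
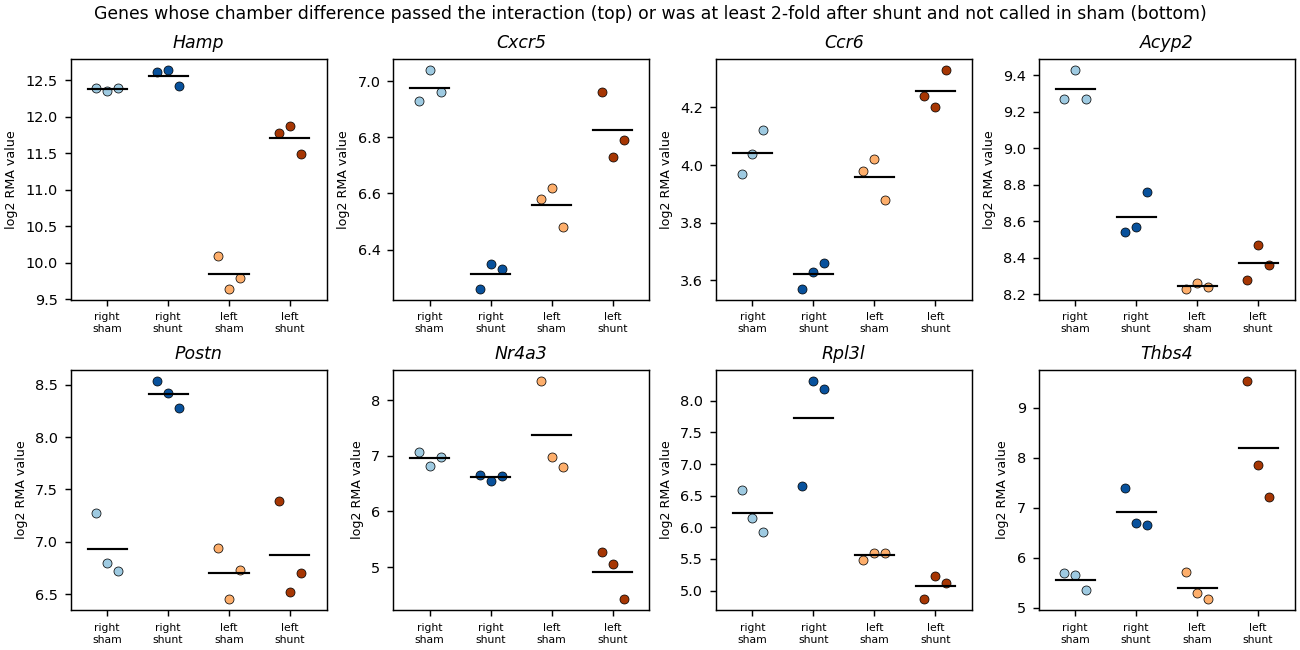
Values on all 12 arrays for 4 genes that passed the interaction test (top row) and 4 genes at least 2-fold apart after shunt and not called in sham (bottom row); the vertical axis is the log2 RMA value, points are arrays and bars are group means. For Hamp the left sham arrays lie lowest (9.64 to 10.09). For the brightest probe set of Cxcr5 the order of the chambers is reversed between the operations. For Postn the 3 right shunt arrays (8.28 to 8.54) lie above the other 9.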

How the data were processed

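Expression was measured on 12 Affymetrix arrays, 3 for each atrium and operation. The values the authors deposited are log2 expression values per probe set. The submitters' processing notes name RMA, which corrects background, quantile-normalizes arrays and summarises probes; its version is not given in the sources used. Of 31099 probe sets, 57 controls stayed out of the tests; among the others, 20826 had a single gene in the platform annotation, 436 several (left unnamed) and 9780 none. Each gene was read from its probe set with the highest mean over the 12 arrays.

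All 12 arrays entered a limma 3.58.1 fit (R 4.3.3) of 4 group means with 8 residual degrees of freedom. Tests were two-sided, with Benjamini-Hochberg adjustment across the 31042 probe sets. The code was tested on simulated data with known changes. Groups and replicate numbers came from the titles. Genes were named by rule: the 20 largest called differences in each direction whose arrays did not overlap, those past the interaction (or the 10 with the smallest p), up to 5 called members per list, and a set named whatever its values. Another 33 list members were chosen after their values were seen. The members and lists were chosen with earlier results of these data known, and no list was tested as a set.

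Alternatives were a filter on dim probe sets, quantile normalization repeated, array medians subtracted, trend and robust eBayes, array weights, only the 6 arrays compared, the replicate number as a block, other choices of probe set per gene, each array left out and right shunt replicate 1 alone in its group; the counts per list under these settings were added after seeing the data. Promoters matched a RefSeq table for 11700 of the 14217 genes.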

Additional observations from a re-analysis of the deposited data

Results flagged for a closer look

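In 8 probe sets the chamber difference after shunt differed from that in sham by the limma test of the difference itself (Benjamini-Hochberg adjusted p under 0.05). The values are the left minus right difference after shunt minus that in sham, on the log2 scale. Hamp had 1.69, Larp4b 1.03, Cxcr5 0.93, Zfp292 0.84, Acyp2 0.83 and Ccr6 0.72. The unnamed probe sets had -1.15 (1373882_at) and 0.68 (1378249_x_at). Larp4b differed by -0.67 after shunt and -1.70 in sham. The Zfp292 probe set differed by 0.16 after shunt, which did not pass (adjusted p = 0.101), and by -0.68 in sham. Cxcr5 and 1378249_x_at changed sign, with differences of 0.51 and 0.44 after shunt and -0.42 and -0.24 in sham. Of the genes followed through the alternative settings, Hamp passed in 19 of 21 (1.59 to 1.82), Cxcr5 in 13 of 21 (0.51 to 1.01), Acyp2 in 8 of 21 (0.77 to 0.91) and Ccr6 in 4 of 20 (0.63 to 0.77). Groups of 3 arrays are too small for a search for single outlying arrays.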

How the results depend on the processing

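After shunt, 11690 probe sets passed, 53.7% of them higher in the left. Restricting the test to probe sets with a mean of at least 6 gave 7181 (3128 left, 43.6%; 489 at least 2-fold), in sham 7311 and for the interaction 16 in place of 8. With 1 probe set per gene the counts were 6097 (3194 left, 2903 right, 262 at least 2-fold) and 5621 in sham. The mean of all probe sets of a gene gave 6249 (3671 left, 58.7%; 2578 right; 176 at least 2-fold) and 5804 in sham. These settings test fewer features. Right shunt replicate 1 alone in its group, with the lone array assumed to vary like the other groups, gave 4797 (2404 left, 2393 right) and 0 for the interaction. The interaction count was 4 with array medians subtracted and 15 each with trend and robust eBayes and with array weights; the cause was not tested. Leaving out 1 array gave 8913 to 11578 after shunt (4679 to 6235 left, 4234 to 5462 right, 719 to 847 at least 2-fold), 9016 to 12309 in sham and 0 to 21 for the interaction.

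With the replicate number as a block, 11461 probe sets passed after shunt, 10995 in sham and 3 for the interaction; Cxcr5 (adjusted p = 0.0665), Acyp2 (0.075) and Ccr6 (0.0847) no longer passed the interaction, and Slc22a8 then did (0.0231). The labels do not say that numbers pair the samples. Same-number arrays correlated at 0.13, 0.14 and 0.09 after shunt and 0.10, 0.15 and 0.08 in sham, so not every pair was over 0.1, although every left array correlated best with its own number, as a hint from the data.

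Of 233 called genes followed through the alternatives, 136 were called in all that tested them and 96 were lost in at least 1; right shunt replicate 1 alone lost 85. The mean of all probe sets turned the sign of Cxcl12 (0.08), Gja1 (0.61), Myh6 (0.38) and Arid1b (0.03), whose probe sets pointed in different directions, and it ended the calls of Aif1 (-0.20), Clock (-0.04), Isl1 (0.14) and Wt1 (-0.24), among others. Values near the top of the scale, as for Nppa, bound how large a difference can be seen, and 3 pools a group limit the precision.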

Other observations

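Among genes short of the threshold for a changed chamber difference, Slc22a8, a transporter of organic anions, measured 4.89, 5.0 and 4.74 in the left and 4.25, 4.19 and 4.11 in the right after shunt (0.69 ± 0.11), against -0.32 in sham (interaction 1.01 ± 0.15, limma adjusted p = 0.0507). Its left arrays were above its right arrays after shunt. Trim72, a protein of membrane repair in muscle, measured 8.72, 8.55 and 8.60 in the left and 8.88, 8.91 and 9.03 in the right (-0.32 ± 0.08), against 0.44 in sham (interaction -0.76 ± 0.12, limma adjusted p = 0.0587). Iqgap2, a scaffold of the actin skeleton, differed by 0.44 ± 0.13 after shunt and 1.53 in sham (interaction -1.08 ± 0.18, limma adjusted p = 0.0846). These 3 genes passed the interaction in 7 of 20, 5 of 21 and 3 of 21 alternative settings, for Slc22a8 with the replicate block among them.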
